A study of Rattus norvegicus with 72 samples.

Results

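Primary rat hepatocytes exposed for 24 h to 4-(methylnitrosamino)-1-(3-pyridyl)-1-butanone (NNK) were set against control cultures of the same time. The comparison rested on 6 of the 72 arrays of the study, 3 titled NNK at 24 h and 3 titled as the NNK control at 24 h, chosen by title alone. Each title carries a D number (D7, D8 or D9), so that 1 NNK array and 1 control array share each number. What a D number stands for is not said in the labels. The protocol speaks of 3 independent biological experiments per compound, and the strain, the number of animals per experiment and the vehicle given to the controls were not stated in the sources used here.

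NNK was dosed at 625 µM, 18 to 20 h after plating. The cells had been isolated by collagenase perfusion, plated in serum and then kept as a monolayer in serum-free medium with hydrocortisone and insulin, which NNK and control cultures shared. The whole study exposed such cultures to 8 compounds for 24 or 72 h, and its design text lists NNK among the genotoxic carcinogens beside aflatoxin B1 (19 nM) and 2-nitrofluorene (78 µM). A dose series was not part of the design, so every value below is for 1 dose.

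NNK is a nitrosamine formed from nicotine in tobacco. Cytochrome P450 enzymes hydroxylate it next to the nitroso group, and the unstable products methylate or pyridyloxobutylate DNA, while carbonyl reduction and glucuronidation lead towards excretion. DNA lesions stall RNA and DNA polymerases and activate the kinases that stabilise p53, a transcription factor. p53 then raises its own ubiquitin ligase Mdm2, the cyclin-dependent kinase inhibitor Cdkn1a and genes of growth arrest, apoptosis and repair.

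RNA was hybridised to Affymetrix rat arrays and read as MAS5 signals, in arbitrary units on a linear scale. Here a signal under 3.117, the 20th percentile of the table, was set to that floor, log2 was taken, and 18048 of 31099 probe sets bright enough in at least 1 group of the study were tested. A gene "rose" or "fell" where limma gave a Benjamini-Hochberg adjusted p under 0.05 over all 18048, and changes are NNK minus control on the log2 scale with the standard error (SE) of the fit. The spread behind each test was estimated over all 72 arrays. The 6 arrays had like median signals (19.28 to 20.64), like shares of values at the floor (19.4% to 21.8%) and like actin 3′ to 5′ ratios (0.553 to 0.732, log2), and their log2 values correlated at 0.949 to 0.979. Hepatocyte markers were among the brightest genes: the mean control signal was 4010 for Alb, 4601 for Ttr, 5610 for Serpina1 and 1422 for Hnf4a. Markers of other liver cells were present at lower signals in both groups, with 13 macrophage genes summing to 996 to 1658 in controls and 863 to 1451 after NNK, and 9 stellate genes to 637 to 1344 and 552 to 1053. None of these 13 and 9, nor any of 5 endothelial genes, was called, though 10 of the 13, all 9 and all 5 had lower values after NNK (medians −0.13, −0.16 and −0.26); their part in the results below was not tested. Of 2 measured bile duct genes, the keratin Krt7 was at the floor on all 3 control arrays. The other, Epcam, had a mean signal of 297.9 in controls and 408.2 after NNK. Neither was called, and both had higher values after NNK.

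Of the 18048 probe sets, 166 changed after 24 h of NNK (0.92%), 76 upwards (0.421%) and 90 downwards (0.499%). By comparison, 1612 had an unadjusted p under 0.05, and the median change of all genes was 0.01. Of those called, 46 rose and 60 fell by more than 2-fold. Counted once per gene, through the brightest probe set of each of 10178 named genes, 49 genes rose (0.481%) and 64 fell (0.629%). All NNK arrays lay above all control arrays for 46 of the 49 and below them for 62 of the 64, beside 11.4% and 9.85% of all probe sets tested. The genes were called on the mean difference of the same arrays, so such separation follows in part from the call. The rises ranged from 0.39 to 4.27 with a median of 0.97, the falls from 0.51 to 3.04 in size with a median of 1.20.

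The 3 pairs did not respond to the same degree. Over the 166 probe sets the median size of change was 0.66 in pair D7, 1.37 in D8 and 1.40 in D9, and D7 had the smallest change for 44 of the 49 genes that rose and 60 of the 64 that fell. In D7 165 of the 166 went in the direction of their call. These probe sets were called on the mean of the same 3 pairs, which by itself favours a shared direction. With D number as a replicate block 377 probe sets changed (171 up, 206 down). The count was 367 without the NNK array of D7, 45 without that of D8 and 37 without that of D9, and 75, 67 and 86 without the control arrays of D7, D8 and D9. Of 39 called genes named by rule below, 9 kept their call whichever of the 6 arrays was left out: Pln, Adam8, Hapln3, Spetex2l2, Mdm2, Lig4, Ccng1, Phlda3 and Fhit. The other 30 lost it in at least 1 case (1 gene without NNK D7, 24 without NNK D8, 27 without NNK D9, and 16, 20 and 16 without the control arrays of D7, D8 and D9), always in the same direction. Only 2 of the 9, Adam8 and Phlda3, were also called under every other setting run. The rest of the 9 lost their call when the 6 arrays were fitted alone without the block. The arrays are too few for a single-gene exact test to pass, since 3 against 3 cannot give a two-sided p below 0.10.

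The p53 circuit was the group most often raised among those listed. Of 13 measured genes of p53 feedback and growth arrest, 7 rose and none fell, against 0.481% rising among all genes, and the list's median change was 0.94 against 0.01 for all genes. Promoter windows of 3 p53-circuit genes that rose are printed here because each holds an exact match to the p53 consensus decamer (in capitals), with 250 bases before and 50 after the RefSeq start on build GRCr8, read 5′ to 3′ on the gene's strand. The Cdkn1a window is chr20:7150682-7150981 (+) with the match starting 201 bases before the start, Ccng1 is chr10:25684827-25685126 (−) with the match 232 bases before, and Aen is chr1:142224283-142224582 (+) with the match 30 bases before.
Cdkn1a: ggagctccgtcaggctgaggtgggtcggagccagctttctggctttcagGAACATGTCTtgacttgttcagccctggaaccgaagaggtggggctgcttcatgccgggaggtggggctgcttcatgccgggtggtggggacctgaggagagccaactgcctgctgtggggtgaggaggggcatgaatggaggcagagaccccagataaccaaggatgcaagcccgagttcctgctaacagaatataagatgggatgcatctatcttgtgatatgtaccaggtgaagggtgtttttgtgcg
Ccng1: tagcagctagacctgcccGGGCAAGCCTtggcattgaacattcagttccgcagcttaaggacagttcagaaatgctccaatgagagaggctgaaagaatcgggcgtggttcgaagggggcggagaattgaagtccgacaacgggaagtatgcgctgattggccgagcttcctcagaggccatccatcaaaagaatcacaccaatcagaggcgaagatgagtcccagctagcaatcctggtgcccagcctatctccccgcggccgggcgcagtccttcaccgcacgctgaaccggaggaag
Aen: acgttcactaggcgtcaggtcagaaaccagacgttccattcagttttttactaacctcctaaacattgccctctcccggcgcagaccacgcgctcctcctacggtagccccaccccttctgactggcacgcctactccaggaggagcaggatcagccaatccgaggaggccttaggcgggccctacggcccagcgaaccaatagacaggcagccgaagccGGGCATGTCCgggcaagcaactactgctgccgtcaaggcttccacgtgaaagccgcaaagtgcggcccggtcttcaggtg
Among genes with a window, the decamer was found on either strand in 6 of 42 that rose (14.3%), 4 of 51 that fell (7.84%) and 593 of 8565 tested (6.92%). Of the 9 p53-list genes that rose, 8 had a window and the 3 printed were those with the decamer (37.5%). All 33469 promoter windows gave 7.98%. The match is a description of these letters and not a measured site.

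Mdm2, the ubiquitin ligase that degrades p53, had signals of 216, 244 and 236 on the D7, D8 and D9 control arrays and 488, 837 and 872.5 on the NNK arrays. Its change was 1.61 ± 0.30 (adjusted p = 0.0012), 3.06-fold, and its 2 other probe sets rose by 1.63 and 2.04 (log2 changes). Cdkn1a (p21), which halts the cell cycle at G1, read 662, 733 and 684 in controls and 1048, 1516 and 1693 after NNK, a change of 1.01 ± 0.21 (adjusted p = 0.00475). Every NNK array stood above every control array for both genes, and D7 gave the lowest NNK value in each case. The Cdkn1a call was lost without NNK D8 or NNK D9, where its adjusted p reached 0.127.

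Ccng1, a cyclin that recruits a phosphatase to Mdm2, rose from 710, 678 and 887 to 1435, 1977 and 2093 (1.27 ± 0.24, adjusted p = 0.0012). Phlda3, a repressor of Akt, rose from 499, 501 and 405 to 950.5, 1205 and 1214 (1.26 ± 0.23, adjusted p = 0.00105). Sesn2, a stress sensor that restrains mTORC1, went from 144, 177 and 148 to 233, 360 and 413 (1.07 ± 0.26, adjusted p = 0.0246). The groups were separate for all 3 of these genes. Ppm1d, the phosphatase that switches damage signalling off, rose by 0.94 ± 0.22 (adjusted p = 0.0139) from signals near 30 (27.9 to 31.6) to 47.7 to 64.6. The polo-like kinase Plk2 rose by 0.89 ± 0.21 (adjusted p = 0.0218), with 280.5 to 388 in controls and 582 to 634 after NNK. Without NNK D9 the adjusted p of Sesn2, Ppm1d and Plk2 was 0.33, 0.17 and 0.169.

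The 6 members of this list that were not called differed among themselves. Gtse1, a p53-binding protein of G2 and S phase, had the largest change of the list (1.64 ± 0.66) but control signals spread from 16.3 to 39.4, and its adjusted p was 0.354. Zmat3 gave 0.66 ± 0.22 and Gadd45a 0.38 ± 0.26, with adjusted p of 0.194 and 0.748. Plk3 (−0.10 ± 0.42), Sfn (−0.11 ± 0.71) and Sesn1 (−0.35 ± 0.34) had small negative values. Gtse1 and Zmat3 passed against the 2-nitrofluorene-set controls (3.08, adjusted p = 0.00504, and 0.86, adjusted p = 0.0283). The number of list members that rose stayed 7 with the replicate block, was 8 with those other controls and 9 with both control groups, and fell to 3 without NNK D8 or NNK D9 and to 4 without control D8 or control D9.

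Of 11 measured p53 genes of apoptosis, 2 rose: the nuclease Aen (1.01 ± 0.25, adjusted p = 0.0246) and the BH3-only killer Bbc3, also called Puma (0.81 ± 0.19, adjusted p = 0.0198). Aen read 218, 212 and 214 in controls and 358, 413 and 549 after NNK, and Bbc3 253, 197 and 224 against 368, 371 and 440. Neither group overlapped the other. Tp53inp1, which acts in cell death and autophagy, had signals of 137, 149 and 175 against 265, 361 and 326 (1.04 ± 0.28) and just missed the threshold (adjusted p = 0.0537), passing with the replicate block (0.00966). The death receptor Fas (0.68 ± 0.37), the lysosomal protein Dram1 (0.68 ± 0.30) and the death-domain scaffold Pidd1 (0.62 ± 0.29) had positive values with adjusted p of 0.623, 0.447 and 0.49, while Apaf1, the core of the apoptosome, stood at −0.32 ± 0.30. The median of the list was 0.62. The Aen call held only when the array left out was NNK D7, and the Bbc3 call only when it was NNK D7 or control D7; the highest adjusted p was 0.338 for Aen and 0.218 for Bbc3, both without NNK D9.

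p53 genes of repair, metabolism and secretion gave no call among 7 measured, with a median of 0.05. The secreted stress hormone Gdf15 read 43.9, 88.1 and 67.5 in controls and 83.8, 123 and 135 after NNK (0.81 ± 0.46, adjusted p = 0.658). The translesion polymerase Polh (0.89 ± 0.51) and the receptor Epha2 (0.90 ± 0.34) were of like size. Gls2, a mitochondrial glutaminase, was at −0.73 ± 0.27 (adjusted p = 0.263), and the damage recognition genes Ddb2 (−0.28 ± 0.19) and Xpc (−0.12 ± 0.17) were near 0.

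**Figure D1:**
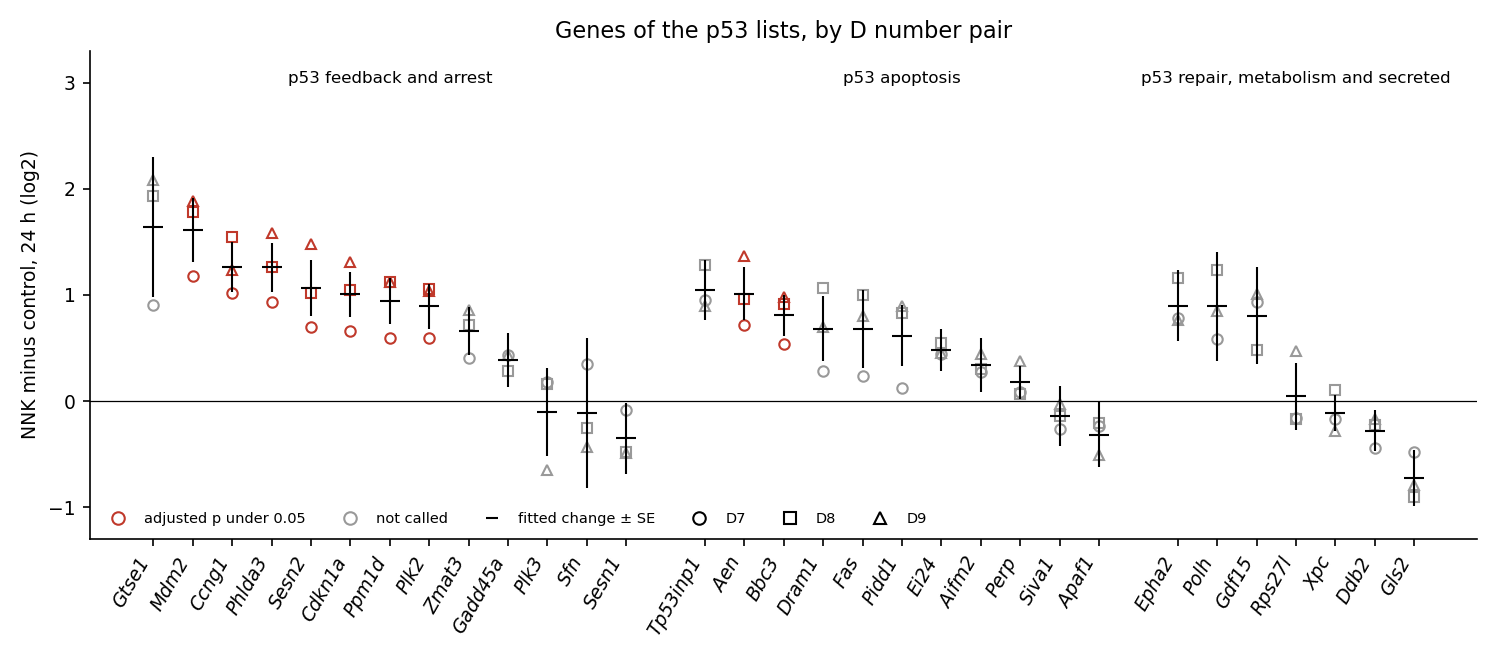
Change of each measured gene of the p53 lists after 24 h of NNK (y axis, log2, NNK minus control); circles, squares and triangles are the pairs D7, D8 and D9, red where the gene passed at adjusted p under 0.05, and the black bar is the fitted change ± SE. All 9 genes in red have the D7 pair below the mean of the 3, and 7 of them are in the feedback and arrest list.

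The largest rises lay outside these lists, in genes that were dim in the controls. Pln (phospholamban), the inhibitor of the calcium pump of muscle sarcoplasmic reticulum, had control signals of 17.6, 17.3 and 14.8 and NNK signals of 124, 387 and 669.6. That is 4.27 ± 0.78 (19.3-fold on the floored scale), and its other probe set gave 4.46. Adam8, a membrane metalloproteinase, went from 17.2, 8.24 and 13.2 to 119, 210 and 447 (4.18 ± 0.69, adjusted p = 0.000363). For both genes D7 was the lowest of the NNK arrays, and no control array reached it.

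Hapln3, which links hyaluronan to proteoglycans, read 4.70, 7.50 and 5.98 in controls and 25.7, 63.3 and 88.7 after NNK (3.14 ± 0.58, adjusted p = 0.00109). Spetex2l2 read 11.9, 9.02 and 4.89 against 32.8, 61.0 and 128 (2.97 ± 0.52, adjusted p = 0.000733). Ddias, a suppressor of apoptosis after DNA damage, rose by 2.48 ± 0.53 (adjusted p = 0.00692), but 2 of its 3 control arrays were at the floor, so that this size depends on the floor. Ankrd13d (2.23 ± 0.57), the calcium-binding Cib2 (2.21 ± 0.56) and the interferon-inducible GTPase Gbp4 (2.11 ± 0.44) completed the 8 largest rises. For all 8 every control array was under the table's median signal of 19.74, and for 2 of them, Ankrd13d and Cib2, the call was kept only when the array left out was NNK D7. All 8 thus met the brightness part of the naming rule through their NNK arrays. With no filter on dim probe sets Ankrd13d and Cib2 lost their call, and with log2(value + 16) Gbp4 did.

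Among the brighter genes that rose were the transcription factor Mybl1 (1.48 ± 0.36, adjusted p = 0.0226), the zinc-finger genes Zfp688 (1.29 ± 0.25, adjusted p = 0.00175) and Zmym5 (1.16 ± 0.30, adjusted p = 0.0418) and DNA ligase IV, Lig4. Lig4 seals double-strand breaks in non-homologous end joining, and it read 63.4, 74.1 and 71.1 in controls and 137, 166 and 212 after NNK (1.28 ± 0.22, adjusted p = 0.000733). It was the single rise among 35 measured genes of DNA repair and checkpoints, whose median was 0.14. The single fall was Prkdc, the catalytic subunit of the DNA-dependent protein kinase of the same joining pathway (−0.65 ± 0.16, adjusted p = 0.028), with 55.5, 67.2 and 60.1 in controls and 53.6, 32.2 and 33.8 after NNK. Its NNK D7 value lay close to the controls, and the call was lost unless NNK D7 was the array left out.

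Enzymes that act directly on methylated DNA were not called. Mgmt, which removes methyl groups from the O6 position of guanine, ranged from 292 to 796 in controls and from 339 to 903 after NNK (0.24 ± 0.43, adjusted p = 0.975), with the D9 array lowest in both groups. The glycosylase Mpg was at 0.12 ± 0.26, with 82.3 to 92.1 in controls and 82.0 to 114 after NNK. Of 28 measured cell cycle genes only Tyms, thymidylate synthase, passed (1.14 ± 0.26, adjusted p = 0.0162), going from 36.3, 36.6 and 46.4 to 63.9, 94.2 and 108, and the list's median was 0.19.

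A few further rises fall outside the naming rule and were chosen after their values were seen. Nfe2l2, the oxidant-sensing transcription factor NRF2, was 1184, 1035 and 1053 in controls and 2022, 2213 and 2191 after NNK (0.97 ± 0.16, adjusted p = 0.000168). The thiamine transporter Slc19a2 rose by 0.91 ± 0.14 (adjusted p = 0.000129) and Ccar1, a coactivator of p53 and of nuclear receptors, by 0.88 ± 0.14 (adjusted p = 0.000168). The targets of NRF2 did not pass with it: 0 of 22 measured were called with limma, at a median of 0.26. Sulfiredoxin, Srxn1, came nearest (1.52 ± 0.41, adjusted p = 0.054, and 0.0115 with the replicate block), while Hmox1 (0.32 ± 0.54), Nqo1 (0.41 ± 0.52) and Gclm (−0.10 ± 0.21) did not pass.

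The falls were led by Fhit and by other very long genes. Fhit, a diadenosine triphosphate hydrolase and tumour suppressor whose human counterpart spans a chromosomal fragile site, read 39.7, 40.9 and 45.1 in controls and 12.7, 1.43 and 3.36 after NNK. Its change was −3.04 ± 0.47 (adjusted p = 0.000129), with the NNK D8 array at the floor. Wwox, an oxidoreductase and tumour suppressor likewise at a human fragile site, went from 32.7, 36.9 and 30.8 to 13.6, 9.73 and 9.03 (−1.65 ± 0.36, adjusted p = 0.00839). A second Wwox probe set was at −0.37. In RefSeq's rat annotation Fhit spans 1508 kb and Wwox 930.9 kb.

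Enzymes and receptors were among the falls too. Dpyd, which starts the breakdown of uracil and thymine, fell from 211, 225 and 180 to 90.6, 33.6 and 35.2 (−2.11 ± 0.44, adjusted p = 0.00475; 865.9 kb). Sugct, the glutarate CoA-transferase, fell from 27.8, 37.5 and 34.7 to 11.4, 10.4 and 3.56 (−2.14 ± 0.42, adjusted p = 0.00217; 857.8 kb). Esrrg, an orphan nuclear receptor, read 38.9, 39.2 and 54.6 against 23.9, 6.18 and 13.9 (−1.78 ± 0.43, adjusted p = 0.0246; 617.8 kb). The Esrrg call was kept only when the array left out was NNK D7, and was lost with a floor of 10 and with log2(value + 16). For Dpyd, Sugct and Esrrg the arrays of the groups were apart, and the NNK D7 array was the nearest to the controls, for Sugct only just.

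Ptprd, a receptor tyrosine phosphatase and at 2322 kb the longest gene that fell, read 181, 197 and 174 against 101, 66.2 and 46.1 (−1.44 ± 0.29, adjusted p = 0.00303). The lysine methyltransferase Smyd3 (−1.69 ± 0.31; 556.9 kb), the Golgi lipid transfer protein Vps13b (−1.59 ± 0.32; 576.6 kb), the Rac activator Dock4 (−1.53 ± 0.33; 389.7 kb), the small GTPase Arl15 (−1.50 ± 0.34; 384.3 kb) and Bcas3 (−1.42 ± 0.30; 459.4 kb) had adjusted p between 0.000988 (Smyd3) and 0.0128 (Arl15). Lrmda fell by 2.51 on the log2 scale (SE 0.65, adjusted p = 0.0407; 1059 kb) with 2 of 3 NNK arrays at the floor. Shorter genes stood among the 15 largest falls too: the histone deacetylase Hdac11 (−1.72 ± 0.39; 21.54 kb), Adam11 (−1.62 ± 0.42; 18.68 kb) and the cilium gene Invs (−1.64 ± 0.38; 152.8 kb). Lrmda, Adam11 and Invs kept their call only when the array left out was NNK D7. Lrmda and Invs lost it with a floor of 10 and with log2(value + 16), and Lrmda and Adam11 with no filter on dim probe sets.

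**Figure D2:**
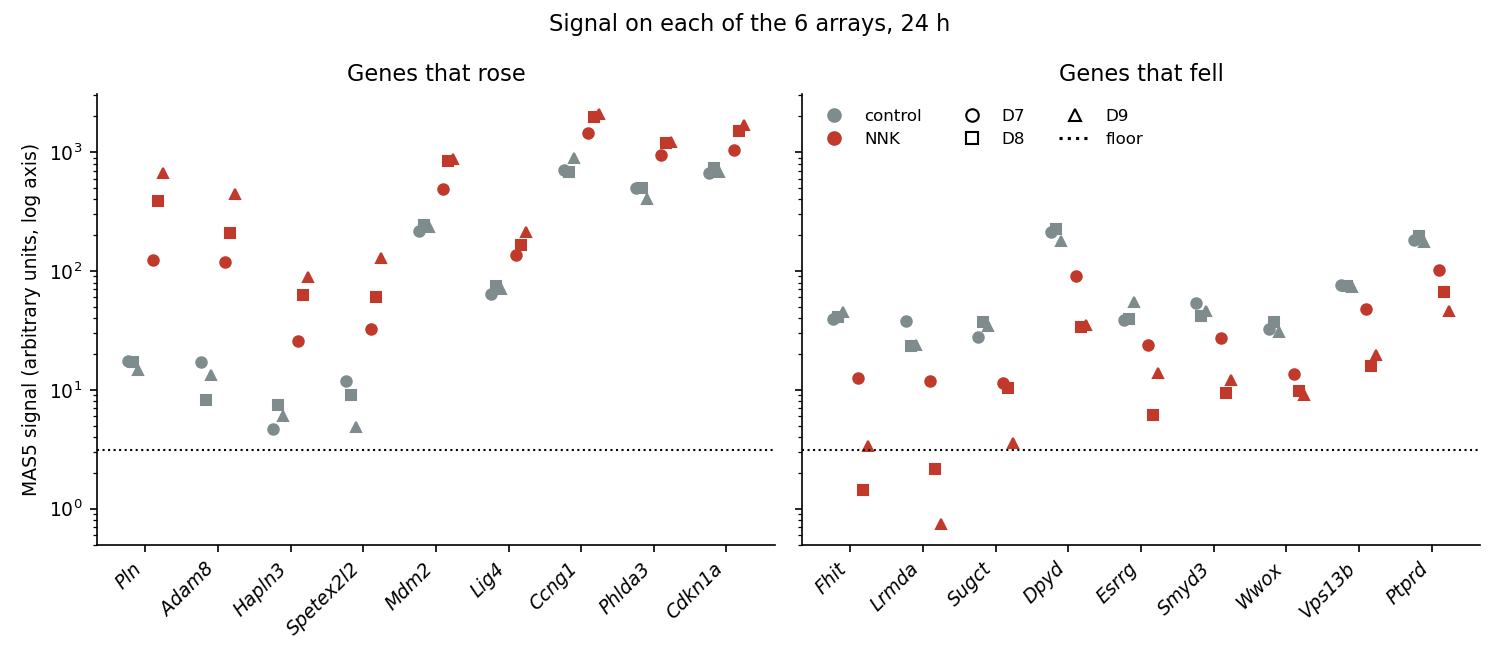
MAS5 signal (y axis, arbitrary units, log axis) of 9 genes that rose and 9 that fell, on each control array (grey) and NNK array (red), with symbols for D7, D8 and D9; the dotted line is the floor of 3.117. In every gene shown the 3 red points lie on 1 side of the 3 grey points, and among the red points the D7 circle is the lowest of the risers and the highest of the fallers.

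Gene length separated the genes that fell from those that rose. The 64 genes that fell had a median length of 373.2 kb (quartiles 247.8 and 551.6), the 49 that rose 16.89 kb (quartiles 9.217 and 28.46), and the 10140 tested genes with a length 23.35 kb. Over 200 kb were 50 of the 64 (78.1%), none of the 49 and 3.93% of all tested. The calls that other fits added included shorter genes: 139 genes fell with the replicate block (median 274.9 kb, 61.9% over 200 kb), 126 against the 2-nitrofluorene-set controls (224.8 kb, 55.6%) and 237 with arrays of D numbers 7 to 9 only (183.4 kb, 47.3%), and in each of these 3 fits 0 of the genes that rose were over 200 kb. The longest gene that rose, the Mediator subunit Med13, spans 90.26 kb. In the fit of the 6 arrays only, without the block, 12 probe sets rose and 0 fell. Length here is the span of the gene on the RefSeq annotation of GRCr8, introns included.

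A gradient with length was also seen over all tested genes with a length, called or not. The median change was 0.04 for genes up to 10 kb (2537 genes), 0.05 from 10 to 20 kb and 0.03 from 20 to 50 kb. It was −0.02 from 50 to 100 kb, −0.16 from 100 to 200 kb (850 genes), −0.41 from 200 to 400 kb (297 genes) and −0.74 above 400 kb (102 genes). The share that fell went from 0 of 2537 in the shortest class to 8.08% and 25.5% in the longest 2, where no gene rose, against 0.629% over all genes. Above 400 kb 87.3% of genes had a negative change, beside 43.4% up to 10 kb.

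In each pair by itself the 2 longest classes had the lowest medians. In D7 the medians of the classes up to 200 kb lay between −0.05 and 0.02, and the drop began at 200 to 400 kb (−0.15). For genes over 400 kb the median was −0.37 in D7, −0.75 in D8 and −0.90 in D9, with 76.5%, 77.5% and 90.2% of the 102 genes lower. The medians up to 10 kb were −0.05, 0.07 and 0.10 in the same order. Against the control arrays of the 2-nitrofluorene set, which carry the same D numbers, the median over 400 kb was −0.71, and leaving out any of the 6 arrays gave values from −0.60 to −0.92. The Spearman correlation of change with length over the 10140 genes was −0.207, given as a description since genes of 1 array share its preparation and are not replicates.

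Long genes were also dimmer, with a median control log2 signal of 5.72 above 400 kb against 7.27 up to 10 kb. Split at the median brightness of all genes, the 26 brighter genes over 400 kb had a median change of −0.46 and the 76 dimmer ones of −0.76. From 200 to 400 kb the values were −0.43 for 102 brighter genes and −0.40 for 195 dimmer ones. Not every giant gene was lower: among the 20 longest 14 were lower, 6 fell and none rose. The dystrophin gene Dmd (2368 kb) and Tenm4 (2975 kb) were at 0.14 and 0.58, not called. They were dim, with control log2 means of 3.96 and 3.61. Among brighter ones Nrg1 (control log2 mean 7.04), Zfhx3 (6.67) and Camta1 (6.44) were at 0.63, −0.13 and −0.24, not called. Ptprd (7.52) and Dpyd (7.67) fell. Where a gene had further probe sets the direction held: 22 of 22 further probe sets of genes that rose were higher and 19 of 20 of genes that fell were lower, of which 4 and 4 passed.

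Long genes that fell but were outside the naming rule, and are given after their values were seen, came from many functions. They include Trappc9 of vesicle tethering (−1.35 ± 0.21), the RNA demethylase Fto (−0.71 ± 0.13), the scaffold gephyrin, Gphn (−1.22 ± 0.22), and the propionyl-CoA carboxylase subunit Pcca (−1.14 ± 0.28). Fto had the tightest values, 190, 209 and 203 in controls and 129, 124 and 116 after NNK (adjusted p = 0.000932). Fto spans 408.3 kb, Trappc9 477 kb, Gphn 529.3 kb and Pcca 340.3 kb.

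**Figure D3:**
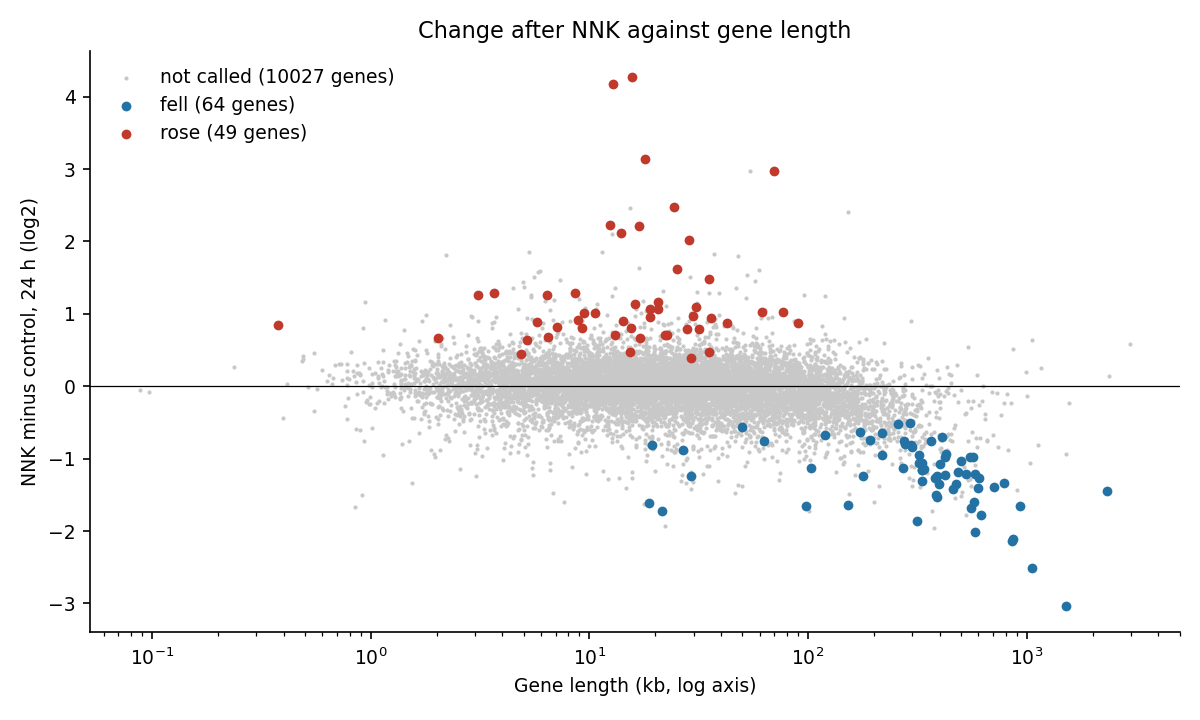
Change after 24 h of NNK (y axis, log2) against gene length (x axis, kb, log axis) for 10140 genes; red points rose, blue points fell and grey points were not called. The blue points gather at the right, with 50 of 64 beyond 200 kb, and no red point lies beyond 100 kb.

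**Figure D4:**
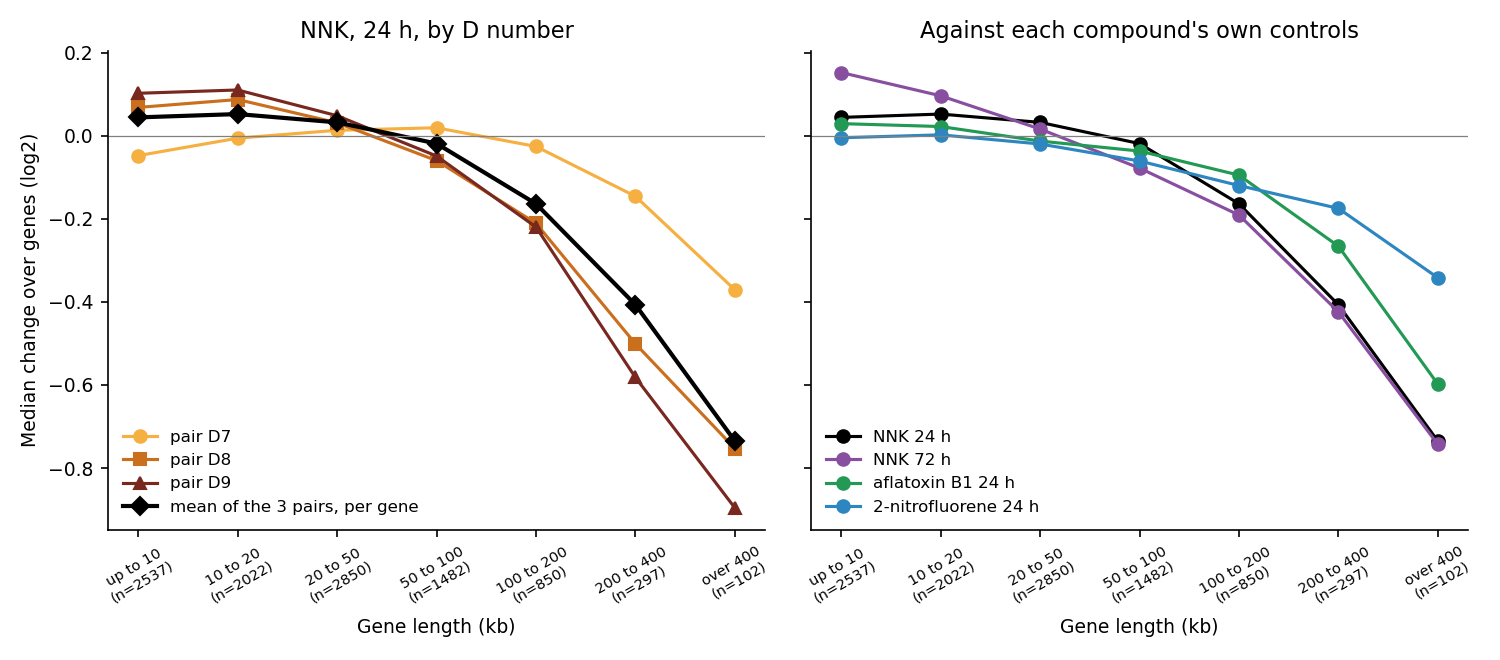
Median change (y axis, log2) in 7 classes of gene length (x axis, kb, number of genes in brackets), on the left for each D number pair of NNK at 24 h and for the fitted change, on the right for NNK at 24 and 72 h, aflatoxin B1 at 24 h and 2-nitrofluorene at 24 h against their own controls. All lines go down from 100 kb on, to −0.74 for NNK at 24 h, −0.74 at 72 h, −0.60 for aflatoxin B1 and −0.34 for 2-nitrofluorene above 400 kb.

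Of 28 listed genes that handle NNK itself, 19 were measured, and none was called in either direction with limma. Cyp2a3, Cyp2b1, Cyp2b2, Ugt1a1 and Ugt2b17 were among those not measured. Of the P450 genes Cyp2a1 was at −0.51 ± 0.62, Cyp2e1 at 0.22 ± 0.85, Cyp3a9 at −0.09 ± 0.77 and Cyp2a2 at −0.55 ± 0.58, all with adjusted p above 0.9 (0.937, 0.996, 0.998 and 0.914). With SEs this wide, moderate changes of these P450 genes could have been missed. Hsd11b1, which reduces the carbonyl of NNK, read 2600 to 3179 in controls and 2525 to 3089 after NNK (−0.01 ± 0.24). Ephx1, microsomal epoxide hydrolase, read 3772, 4011 and 3909 against 5349, 6147 and 5051 (0.50 ± 0.33, adjusted p = 0.743), and the glucuronosyltransferase Ugt2b1 2060, 2861 and 3121 against 3416, 4878 and 4000 (0.62 ± 0.35, adjusted p = 0.64). For these last 2 all NNK arrays were above all control arrays, and both passed in the fit of the 6 arrays alone with the replicate block but not with the block over all arrays (adjusted p = 0.423 for Ephx1 and 0.443 for Ugt2b1). The nicotinic and adrenergic receptors on the list of NNK-binding receptors were too dim to test.

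Serine synthesis had 1 fall. Phgdh, its first enzyme, read 518, 495 and 443 in controls and 298, 133 and 216 after NNK (−1.24 ± 0.28, adjusted p = 0.0133). Psat1, the next enzyme, was at −1.08 ± 0.37 (adjusted p = 0.188; 0.0556 with the replicate block), with 445, 441 and 307 against 343, 151 and 124. In the 28 measured genes of the amino acid response around ATF4, Phgdh was the sole call and the median was −0.33. With the replicate block 3 fell, as Gpt2 (−0.83 ± 0.24, adjusted p = 0.026) and Asns (−0.74 ± 0.22, adjusted p = 0.0265) joined it. The Phgdh call was lost without NNK D8, NNK D9, control D7 or control D8.

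Other programmes of the hepatocyte gave no call in these 3 against 3 arrays. None of 15 endoplasmic reticulum chaperone genes was called (median −0.28), though Hyou1 passed with the replicate block (−1.27 ± 0.38, adjusted p = 0.0412, 0.0964 without). Of 17 cholesterol synthesis genes all 17 had negative values, from Sc5d (−0.16) to Acat2 (−0.78), and none was called; the median was −0.43 where 51.3% of all genes were positive. Fatty acid synthesis stood at a median of −0.48 over 15 genes, 13 of them lower, with Acaca at −0.99 ± 0.32 (adjusted p = 0.154). Among 27 PPARα targets and 30 genes of hepatocyte function the medians were −0.13 and 0.07, and albumin (0.69 ± 0.29) and Pck1 (1.60 ± 0.58) had adjusted p of 0.395 and 0.258. Cyp2a2, Gpt2, Asns, Hyou1, Sc5d, Acat2, Acaca, Alb, Pck1 and the NRF2 targets given above were chosen after their values were seen.

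NNK at 72 h was measured on other arrays, with the same D numbers and its own controls. At 72 h of NNK 600 probe sets changed (3.32%), 302 upwards (1.67%) and 298 downwards (1.65%), and 45 of the 76 that rose at 24 h rose then too (59.2%; 14.9% of the 302 that rose at 72 h). Of the 90 that fell, 51 fell again (56.7%; 17.1% of 298). Direction was shared by 71 of 76 and 86 of 90, at a median of 1.01 and −0.87 at 72 h beside 1.08 and −1.21 at 24 h. Mdm2 was at 2.03, Cdkn1a at 1.82, Pln at 3.77 and Fhit at −3.13 at the later time.

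The test of the difference between the times passed for 5 probe sets (0.0277%), 4 with the higher value at 72 h (0.0222%) and 1 with the lower (0.00554%), and only 1 of these had changed at 24 h. Ccar1, 242, 270 and 304 in controls and 400, 542 and 567 after 24 h of NNK, was at −0.11 at 72 h, a difference of −0.99 ± 0.20 (adjusted p = 0.0279). That call was kept in 4 of 12 cases with 1 array left out (NNK D7 or control D9 at 24 h, NNK D7 or control D8 at 72 h), and its adjusted p reached 0.201 otherwise. The others were both probe sets of Ubl5, Cln3 and S100a14, which were not called at 24 h. Genes over 400 kb had a median of −0.74 at 72 h, the same as at 24 h to 2 decimals, and the 178 genes that fell then had a median length of 109 kb with 36.5% over 200 kb. Gdf15 was called at 72 h (2.69, adjusted p = 0.000142) and not at 24 h, but it was not among the 5 probe sets that passed the test of the difference.

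Aflatoxin B1, a mould toxin that forms bulky guanine adducts, was tested at 24 h under other D numbers (1 to 3) with separate controls. At 24 h 325 probe sets rose (1.8%) and 276 fell (1.53%), and they held 52 of the 76 that rose after NNK (68.4%) and 40 of the 90 that fell (44.4%), or 16% and 14.5% of the aflatoxin lists. In the feedback and arrest list 8 of 13 rose after aflatoxin B1 and in the apoptosis list 7 of 11, beside 7 and 2 after NNK. The time labels of the D3 arrays are in doubt: the labelled 72 h minus 24 h difference of D1 and D2 correlated with that of the controls of D numbers 4 to 9 at 0.60 and 0.30 for controls and 0.38 and 0.30 for aflatoxin B1, and that of D3 at −0.47 and −0.37 (across 18048 probe sets, a description). Some of these arrays also had high actin 3′ to 5′ ratios (log2 2.71 on the D3 control, 1.99 and 2.39 on the D1 and D3 aflatoxin arrays), and the part of both in the result was not tested. Without all D3 arrays 300 rose (1.66%) and 422 fell (2.34%), with 51 and 35 shared, and 7 and 5 genes of the 2 p53 lists rose.

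Effects of the 2 compounds differed by the interaction test at 3 probe sets (0.0166%), 2 higher (0.0111%) and 1 lower (0.00554%) after NNK. The zinc transporter Slc39a11 fell after NNK by 0.98 on the log2 scale (SE 0.25, adjusted p = 0.0353), from 140, 137 and 161 to 107, 50.3 and 73.7, and was at −2.85 after aflatoxin B1, a difference of 1.86 ± 0.35 (adjusted p = 0.0242). That call was lost without the D number 3 arrays (1.55, adjusted p = 0.159), with log2(value + 16) and with quantile normalization, and without 8 of the 12 arrays left out in turn (NNK D7 or D9, each NNK control, aflatoxin D2 or D3, and the aflatoxin control D3), where the adjusted p reached 0.246. The others were a ceruloplasmin (Cp) probe set and 1 without a single gene symbol. Genes over 400 kb had a median of −0.60 after aflatoxin B1 and −0.55 without the D3 arrays. The doses, 625 µM and 19 nM, differ, and no order of strength can be read from them.

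2-Nitrofluorene, a nitroarene tested under the same D numbers with other control arrays, shared almost none of the calls. It changed 204 probe sets (1.13%): it raised 143 (0.792%) and lowered 61 (0.338%), of which 0 and 1 were shared with NNK. The 76 that rose after NNK had a median of 0.21 after 2-nitrofluorene and the 90 that fell of −0.23, with the sign shared by 62 of 76 and 72 of 90. The difference test passed for 65 probe sets (0.36%), 12 higher (0.0665%) and 53 lower (0.294%) after NNK, 10 of them called after NNK. Adam8 (difference 4.79 ± 0.98, adjusted p = 0.00763), Hapln3 (3.33 ± 0.82, adjusted p = 0.0462) and Bbc3 (1.15 ± 0.27, adjusted p = 0.036) were among these. They rose after NNK and were at −0.61, −0.19 and −0.34 after 2-nitrofluorene. Leaving out each of the 12 arrays in turn, the call was kept in 11 cases for Adam8 (lost without NNK D9), 2 for Hapln3 (NNK D7 or 2-nitrofluorene D8 left out) and 3 for Bbc3 (NNK D7, control D7 or 2-nitrofluorene-set control D8 left out). Hapln3 also lost it with log2(value + 16), with no filter on dim probe sets and with quantile normalization, and Bbc3 with no filter. Of the 27 PPARα targets 13 were in the 65, all higher after 2-nitrofluorene: Ehhadh, a peroxisomal enzyme of fatty acid oxidation, was at −1.21 after NNK and 4.42 after 2-nitrofluorene. None of the 46 genes that fell after 2-nitrofluorene was over 200 kb, and its median above 400 kb was −0.34.

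**Figure D5:**
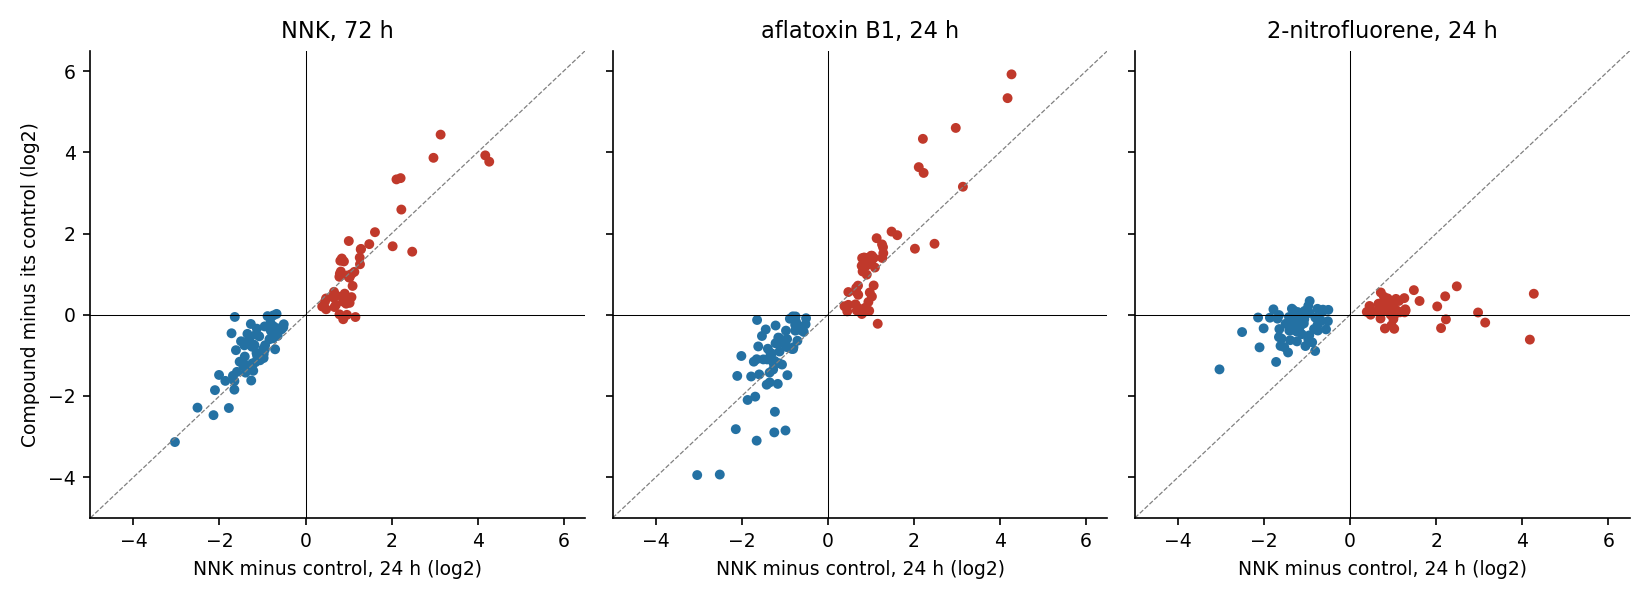
Change of the 113 genes called after 24 h of NNK (x axis, log2) against their change in 3 other comparisons, each with its own controls (y axis, log2; dashed line, equality); red genes rose and blue genes fell after NNK. Most points have the sign of their NNK change in every panel but scatter around the dashed line: Fhit is at −3.13, −3.95 and −1.34 for NNK at 72 h, aflatoxin B1 and 2-nitrofluorene, while Invs is at −0.05 and −0.13 and Zmym5 at −0.06 and −0.22 in the first pair of panels.

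A second set of controls allowed a check of the control arrays themselves. The NNK controls and those of the 2-nitrofluorene set, with the same D numbers and time, differed at 0 of 18048 probe sets with limma (0%; 411 at an unadjusted p under 0.05). Against that other set NNK changed 338 probe sets (1.87%), 141 upwards (0.781%) and 197 downwards (1.09%). Mdm2 was then at 1.48 (adjusted p = 0.00281), Pln at 5.31 and Fhit at −3.29, while 4 of the named genes lost their call: Cdkn1a (0.68, adjusted p = 0.0804), Cib2 (1.88, adjusted p = 0.063), Adam11 (−1.45, adjusted p = 0.0572) and Dock4 (−1.14, adjusted p = 0.0511).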

How the data were processed

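The authors deposited MAS5 signal intensity per probe set on a linear scale, per the submitters' processing notes, which give no version. No array-level scanner data were used. The table held 31099 probe sets on 72 arrays in 24 groups, and 0 columns of values were left unused. Signals were floored at 3.117, the 20th percentile of the table, and log2-transformed. After leaving out 57 AFFX probe sets, 18048 (58%) with a group mean at or above the table median of 19.74 were tested.

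limma 3.58.1 in R 4.3.3 fitted group means over all 72 arrays, which share 1 estimate of spread per probe set (48 residual degrees of freedom), with eBayes trend and Benjamini-Hochberg adjustment. Where labels do not show separate animals, p-values measure the spread between these samples only. Array number limits the precision. The scripts were tested on simulated data.

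D numbers were taken to pair the NNK and control arrays, though the labels do not say what they stand for. Deviations from the group means correlated at 0.411, 0.432 and 0.283 for D7, D8 and D9 and at most −0.088 across numbers. Deviations cancel out within each group, so negative values across numbers follow in part from the positive ones. The fit with D number as a replicate block is an alternative.

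Symbols came from the platform annotation (20832 probe sets with 1 symbol, 436 with several), updated to RefSeq GRCr8 for 20764; each gene stands for its brightest tested probe set, and lengths were found for 10140 of 10178. Promoters came from RefSeq GRCr8.

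Named genes were the 15 largest rises and 15 largest falls called with the same sign in all 3 pairs and a brighter group mean at or above the table median, all measured p53-list genes, up to 4 called genes of each other list and, called or not, Mgmt, Mpg, Cyp2a1, Cyp2b1, Cyp2e1, Cyp3a9, Hsd11b1, Ephx1, Ugt2b1, Fhit, Wwox, Psat1, Phgdh and Gdf15 (Cyp2b1 gave no measured value). The members and lists were chosen with earlier results of these data known.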

Additional observations from a re-analysis of the deposited data

Results flagged for a closer look

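For 9 results the effect of NNK at 24 h differed from its effect at 72 h or from that of another compound by limma's test of the difference (adjusted p under 0.05). Between the times, Ccar1 differed by −0.99 (log2, 72 h minus 24 h). Between NNK and aflatoxin B1, Slc39a11 differed by 1.86, having fallen less after NNK; the call was lost without the D number 3 arrays, with log2(value + 16) and with quantile normalization. Between NNK and 2-nitrofluorene the difference was 4.79 for Adam8, 3.33 for Hapln3, 1.37 for Synj1, 1.15 for Bbc3, 0.96 for Nfe2l2 and 0.79 for Ccar1, each higher after NNK, and −0.91 for Faf1, which fell after NNK (−0.76 ± 0.15, adjusted p = 0.00303) and was at 0.15 after 2-nitrofluorene. Synj1 and Faf1 were chosen after their values were seen. With 1 of 12 arrays left out in turn, Adam8 kept its call in 11 cases, Synj1 in 7, Slc39a11, Nfe2l2 and both Ccar1 results in 4, Bbc3 in 3, and Hapln3 and Faf1 in 2. Slc39a11 was not alone in its losses under other processing. Hapln3 lost its limma call with log2(value + 16) (adjusted p = 0.103), with no filter on dim probe sets (0.08) and with quantile normalization (0.0636). Without the filter Bbc3 (0.0528) and Ccar1 against 2-nitrofluorene (0.0616) lost theirs, the latter also with no eBayes trend (0.0573).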

How the results depend on the processing

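The number of probe sets called differed widely between settings. For NNK at 24 h it was 166 as reported, 377 with D number as a replicate block and 344 without the D number 3 arrays. Arrays of D numbers 7 to 9 only gave 742. The 6 arrays only gave 12, with 12 rises and 0 falls, and the 6 arrays with the replicate block 576 (231 up, 345 down). With the 2-nitrofluorene-set controls the number was 338 and with both control groups 488. Leaving out 1 array gave 37 to 367. The difference between 72 and 24 h (5) became 14 with the replicate block, 93 with D numbers 7 to 9 only, 23 without D number 3, 15 with a floor of 10 and 8 with no filter on dim probe sets, and 0 to 7 with 1 array left out. The difference from aflatoxin B1 (3) became 18 with the replicate block, 17 with a floor of 10, 5 with no filter, and 0 with log2(value + 16) and 0 with quantile normalization (limma; 1139 at an unadjusted p under 0.05 as reported), and 0 to 5 with 1 array left out. The difference from 2-nitrofluorene (65) became 127 with the replicate block, 445 with D numbers 7 to 9 only and 191 without D number 3, and 31 to 114 with 1 array left out. Of the p53 feedback and arrest list 7 rose as reported, 1 from the 6 arrays only, 9 from these with the replicate block, 8 with the 2-nitrofluorene-set controls, 9 with both control groups, and 3 to 7 with 1 array left out. The cause of these shifts was not tested. The median over 400 kb stayed negative under the alternatives run, from −0.92 to −0.48. For the named genes, 1073 recomputed values kept their side of the threshold, 161 lost a call and 26 gained one. No called gene changed direction, while 16 values of 9 uncalled genes (Mgmt, Mpg, Cyp2e1, Cyp3a9, Hsd11b1, Sfn, Plk3, Rps27l and Xpc) had the other sign, none of them called. The overlap with aflatoxin B1 without D number 3, gene length under other settings and single difference tests under them were added after seeing the data. Signals near the floor limit the size of changes of dim genes.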
